A study of Homo sapiens with 6 samples.

Results

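The proteasome mRNAs described here are those whose symbol in the site lists begins with PSMA, PSMB, PSMC, PSMD, PSME, PSMF or PSMG, and they number 44 of the 8197 genes with a site in any of 6 lists. Core members (PSMA and PSMB) number 15 and regulatory members (PSMC and PSMD) 21, with 4 activators (PSME), 1 inhibitor (PSMF1) and 3 core assembly chaperones (PSMG). PSMC3IP carries a PSMC symbol but is a recombination factor and no subunit, so 43 members are proteasome proteins. Each member was listed on 1 RefSeq mRNA, and all members together held 343 sites. The symbols PSMA8, PSMB8, PSMB10, PSMB11 and PSMG4 had no row and were not analysed here. PSME3IP1 was listed under the older symbol FAM192A and stayed outside the rule.

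The proteasome degrades proteins tagged with ubiquitin. Its core particle is a barrel of stacked rings in which alpha subunits (PSMA) form the gates and beta subunits (PSMB) line the proteolytic chamber. The regulatory particle has a base, with the ATPases (PSMC) that unfold substrates, and a lid that removes ubiquitin. Its subunits are translated in the cytosol, although the complex also degrades proteins pulled back out of the endoplasmic reticulum (ER).

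All libraries came from AEG-1-14, a HepG3 derivative (hepatoblastoma, by the labels) that stably expresses AEG1 carrying a C-terminal HA tag. AEG1, encoded by MTDH, is a membrane protein of the ER, and the study addressed the RNAs bound to it. RNA was crosslinked to protein with UV light at 254 nm (HITS-CLIP AEG1, 2 libraries) or 365 nm (PAR-CLIP AEG1, 1 library), recovered with an anti-HA antibody and sequenced. The negative controls (HITS-CLIP negative ctrl, 2 libraries; PAR-CLIP negative ctrl, 1 library) had the same cells and antibody without UV, so they also carried the tagged protein, and no library of untagged cells was used. The labels do not say whether both HITS-CLIP replicates were grown as separate cultures, so p-values measure only the spread between these libraries, which may be technical. No library of total mRNA was among them, so no value below is divided by the level of an mRNA, and read depth is unknown.

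Each library is a list of called sites, with positions on an mRNA and the authors' score of each site. The score was read as log2 from its values, and all ratios on a linear scale below rest on that reading. The HITS-CLIP AEG1 lists held 6378 and 5651 sites, the PAR-CLIP AEG1 list 60085, and the controls between 60 and 121. Of 11 markers of liver and hepatoblastoma cells, 10 had a site in an AEG1 library, among them AFP, or alpha-fetoprotein, with 15 and 14 sites in HITS-CLIP and 6 in PAR-CLIP, and DLK1 had none. Liver markers were not all free of sites without UV. For ALB, or albumin, the PAR-CLIP negative control listed 13 sites, more than the 3 of PAR-CLIP AEG1. Its HITS-CLIP counts were 5 and 10 with UV, against 11 and 9 without. SERPINA1 was listed in every control, and APOB in the PAR-CLIP control only. Of 12 markers of endothelial, blood or stromal cells, 3 had a site, namely CD14, CD68 and ACTA2. CD68 had 3 sites in each HITS-CLIP AEG1 replicate and 13 in PAR-CLIP AEG1. Apart from a cutoff at the median score of all sites, used in alternatives, scores are compared here only between sites of the same mRNA. No label states whether the libraries share a scale. The cutoff, 6.72, treats all mRNAs and libraries as if they did, so results above it are uncertain. On PSMA2, for example, 2 to the power of the score was 2 times as high in HITS-CLIP replicate 2 as in replicate 1, and on PSMB9 1.5 times.

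Proteasome mRNAs were widely listed in PAR-CLIP AEG1, sparsely in HITS-CLIP AEG1 and in no control. In PAR-CLIP AEG1, 43 of 44 members had a site (97.7%, exact 95% binomial interval 88 to 99.9, counting error only), against 97.6% of all 8197 genes. Both shares count only genes with a site in some list, and PAR-CLIP AEG1 alone listed 8002 of the 8197. Both were therefore bound to be high and cannot show whether PAR-CLIP sets the members apart. In HITS-CLIP AEG1, 5 members had a site in replicate 1 and 7 in replicate 2, which is 11.4% and 15.9% of the members, against 22.7% and 20.8% of all genes. Members with a site in both replicates numbered 2 of 44 (4.55%, exact interval 0.555 to 15.5, counting error only), against 16.1% of all genes. Members listed in either replicate numbered 10 (22.7%), against 27.3% of all genes. Of these 10, 2 were listed in both replicates (20%, exact interval 2.52 to 55.6), against 58.9% of the 2241 genes listed in either.

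The 3 control lists held no site on a member, where they held 0.598%, 0.952% and 0.805% of all genes. The HITS-CLIP AEG1 libraries averaged 6 ± 1.41 members with a site (SD, n = 2) and 6.5 ± 0.707 member sites (SD, n = 2), and both control libraries stood at 0. With sites above the median score of all sites the differences were 1 member and 1 site, and without sites of 25 nt or less 4 members and 4.5 sites. The groups do not overlap, and the two-sided exact permutation p was 0.333, the smallest that 2 against 2 libraries allow. Over all genes the groups were apart as well, with 1860 and 1701 genes listed in HITS-CLIP AEG1 against 49 and 78 in the controls. The separation is therefore not particular to the members. PAR-CLIP AEG1 held 330 member sites against 0 in its control, with 1 library on each side and therefore no replicate check.

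**Figure D1:**
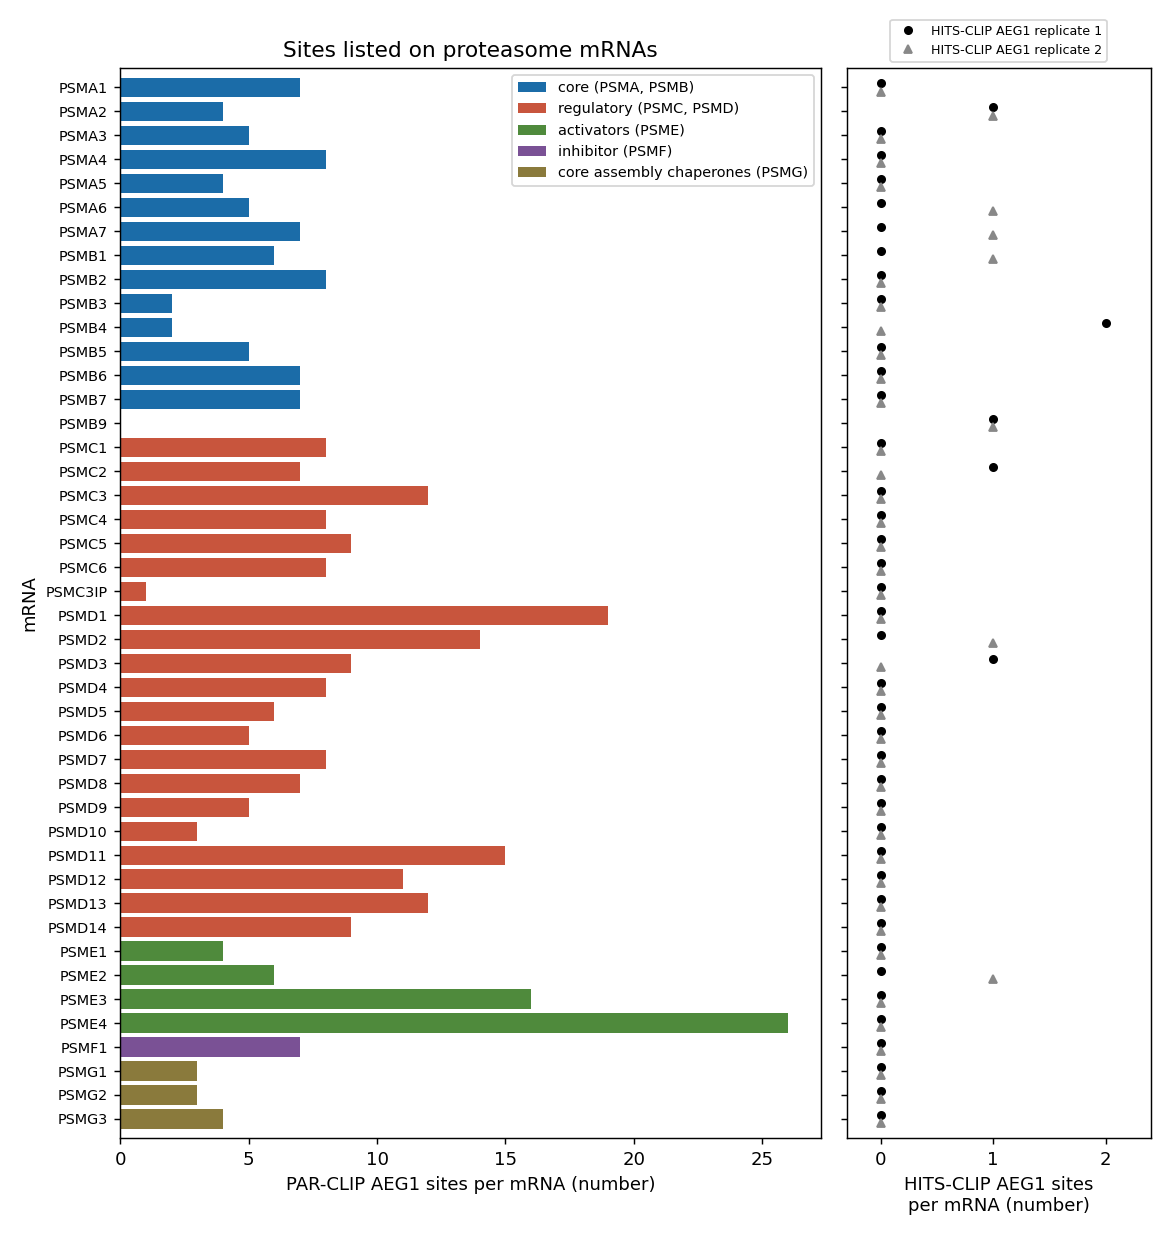
Number of sites on each of the 44 mRNAs, as bars for PAR-CLIP AEG1 (left, coloured by symbol family) and as points for the 2 HITS-CLIP AEG1 replicates (right). PSME4 has the most PAR-CLIP sites with 26 and PSMB9 has none, while the HITS-CLIP points lie at 0 for 34 mRNAs in both replicates.

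Of the 10 members with a HITS-CLIP site, 6 were core subunits. They are 40% of the 15 core members, and 2 core members (13.3%) had a site in both replicates. Of the 21 regulatory members 3 had a site in either replicate (14.3%) and 0 in both. All genes stood at 27.3% in either replicate and 16.1% in both. Of the other members, PSME2 alone was listed, in 1 replicate. The exact intervals of the core and regulatory shares in either replicate, 16.3 to 67.7% and 3.05 to 36.3%, overlap, and the difference was not tested.

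The pair listed in both replicates are PSMA2, an alpha ring subunit, and PSMB9, a catalytic beta subunit that replaces its constitutive counterpart in the interferon-induced immunoproteasome. PSMB9 had 1 site in each replicate, from nt 145 to 165 of its mRNA in both, at scores of 10.66 and 11.24. It is the only member without a PAR-CLIP site, as were 5.83% of the 1320 genes listed in both HITS-CLIP replicates. PSMA2 also had 1 site in each replicate, from nt 583 to 604 at a score of 3.95 and from nt 584 to 607 at 4.95. These 4 sites are 21 to 24 nt wide. Sites of 25 nt or less made up 6.8% and 7.01% of the HITS-CLIP AEG1 lists and 65% and 67.8% of the unirradiated HITS-CLIP controls. Neither PSMA2 nor PSMB9 had a site in a control, but without sites of this width no member was listed in both replicates, while 13.5% of all genes still were.

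The other 8 members were each listed in 1 replicate. Replicate 1 held 2 sites on PSMB4, a beta ring subunit without catalytic activity, from nt 522 to 551 and from nt 643 to 695, at scores of 4.37 and 5.95. It also held a site on PSMC2, an ATPase of the base, from nt 882 to 926 at 3.69. On PSMD3, a scaffold subunit of the lid, its site ran from nt 1710 to 1769 at 5.55.

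Replicate 2 held the remaining 5 members. Among alpha ring subunits, PSMA6 had a site from nt 283 to 311 at 2.63 and PSMA7 from nt 290 to 367 at 4.20, the widest of the member sites at 78 nt. PSMB1, a beta ring subunit, had a site from nt 737 to 779 at 3.75. PSMD2, a large scaffold of the base that receives ubiquitin carriers, was listed from nt 1968 to 2001 at 5.23. PSME2, a subunit of the interferon-induced activator PA28, was listed from nt 223 to 256 at 4.59. None of these 8 members therefore repeated between replicates. Of the member sites, 2 of 6 in replicate 1 (33.3%, exact interval 4.33 to 77.7) and 2 of 7 in replicate 2 (28.6%, 3.67 to 71) overlapped a site of the other replicate by at least 1 nt, against 63.2% and 71.3% of all sites.

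Where PAR-CLIP listed the mRNA, the HITS-CLIP site lay inside a PAR-CLIP site in every case. By overlap of at least 1 nt with a PAR-CLIP site, 5 of 6 sites in replicate 1 and 6 of 7 in replicate 2 were shared, the exceptions being those on PSMB9, against 90.2% and 90.4% of all HITS-CLIP sites. The PAR-CLIP site was wider each time. On PSMA2 it ran from nt 292 to 806, on PSMB4 from nt 293 to 905 and on PSMC2 from nt 846 to 1268. The narrowest, on PSMA6, ran from nt 195 to 315. Since PAR-CLIP cover of these mRNAs was high, as given below, such overlap does not show that the sites coincide in particular.

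**Figure D2:**
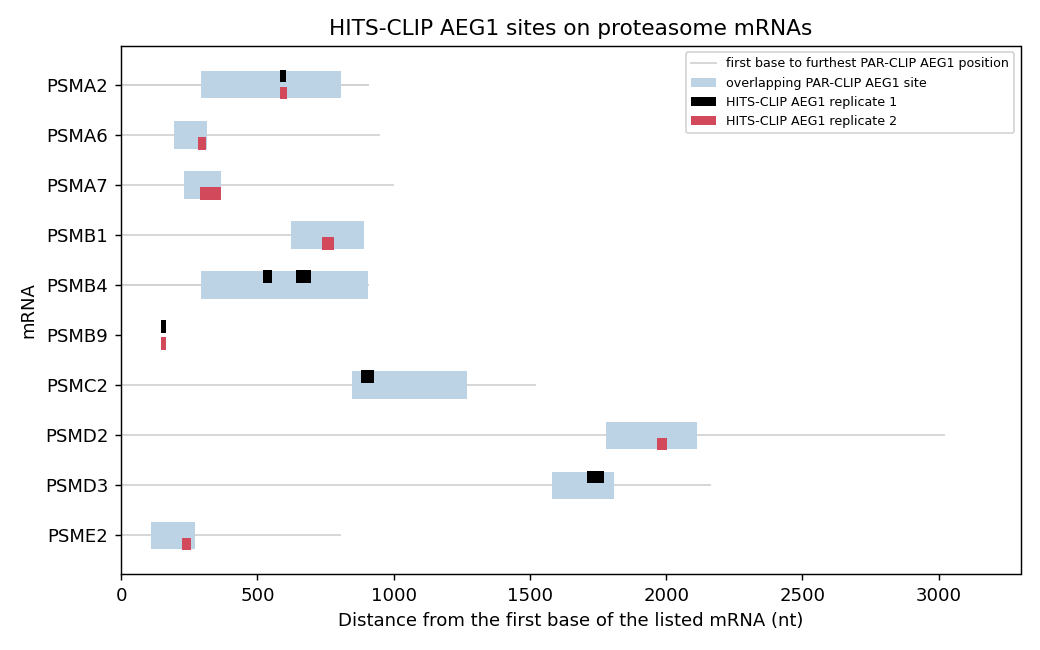
Position of the 13 HITS-CLIP AEG1 sites on 10 proteasome mRNAs, in nt from the first base, with replicate 1 in black, replicate 2 in red and the overlapping PAR-CLIP AEG1 site in pale blue. Replicates meet on PSMA2 and PSMB9, and PSMB9 has no PAR-CLIP site.

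HITS-CLIP scores on these mRNAs were low beside the PAR-CLIP scores of the same mRNA. The highest HITS-CLIP score, averaged over the replicates with a site, was below the highest PAR-CLIP score on 9 of 9 mRNAs, as it was on 87.1% of all 2050 transcripts with both. The difference of scores was smallest on PSMA7, at -1.19, and largest on PSMC2, at -5.79. PSMA2, PSMD2, PSMB4 and PSMB1 lay at -5.73, -4.61, -4.48 and -4.33, and PSMA6, PSME2 and PSMD3 at -3.08, -2.89 and -2.39. The median was -4.33 over the 9 members and -1.66 over all transcripts, with quartiles of -4.61 to -2.89 and -2.67 to -0.63. As ratios on the linear scale, the PAR-CLIP score was 2.29 times the HITS-CLIP score on PSMA7 and 55.2 times on PSMC2.

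The highest-scoring PAR-CLIP site was also the widest on 30 of 43 members (69.8%) and on 62.5% of all transcripts. With each score divided by the width of its site, an alternative chosen after the widths were seen, the medians were -1.07 over members and 0.14 over all transcripts. Of the 13 HITS-CLIP sites, 7 held the lowest score of any site on their mRNA in the 6 lists (53.8%, within 0.001 on the log2 scale), against 9.19% of all 12029 HITS-CLIP AEG1 sites. As a rule, only a single site on an mRNA can hold its lowest score. The 13 sites lie on 10 mRNAs and the 12029 on 2241 genes, so the shares have unlike upper limits. The difference between them is therefore not read as a trait of the members. On PSMB9, which has no PAR-CLIP site, a HITS-CLIP site holds the lowest score by construction. The lowest score also depends on how many sites an mRNA holds in PAR-CLIP, and the part of these counts in the result was not tested.

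**Figure D3:**
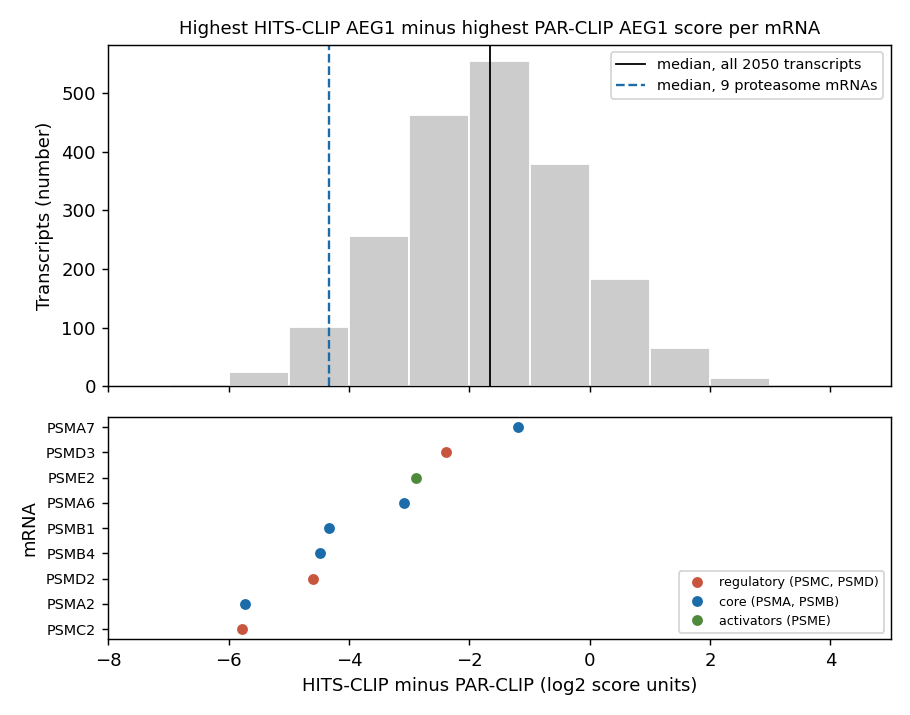
Highest HITS-CLIP AEG1 score minus highest PAR-CLIP AEG1 score on the same mRNA, in log2 score units, as a histogram over 2050 transcripts (top) and as 1 point for each of 9 proteasome mRNAs (bottom). All 9 points are below 0 and their median, -4.33, lies below the median of all transcripts, -1.66.

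PAR-CLIP AEG1 sites covered long stretches of proteasome mRNAs. Because the full length of each mRNA was not used, cover is given as the share of the span from the first base to the furthest PAR-CLIP position that lies inside a site. The median was 64.6% over 43 members and 22.6% over all 8009 transcripts with a PAR-CLIP site, and 30 members (69.8%) were covered over 50% or more, as were 21.6% of all transcripts. Members reached less far along the mRNA, with a median furthest position of 1286 nt against 2053 nt. Among transcripts reaching at most 2000 nt the median cover was 25.7%. High cover was not particular to the proteasome. The median was 83.8% over 8 mRNAs of the cytosolic chaperonin and 80.7% over 11 of the oligosaccharyltransferase of the ER membrane, the complexes compared below. The members' sites were 84.5 nt wide at the median, against 73 nt in the whole list, and 4.85% of them were 300 nt or wider, against 2.35%. PAR-CLIP had 1 library and mRNA levels were not measured, so the part of mRNA abundance in this cover was not tested.

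Among the members, structural subunits and assembly chaperones lay apart in cover. The 31 subunits of the rings, base and lid with PAR-CLIP sites ranged from 36.8% to 99.4%, with a median of 70.5%. The 6 assembly chaperones, which help build the complex and leave it, ranged from 16.1% to 34.0%, with a median of 28%, so the groups did not overlap. The chaperones are PSMG1, PSMG2 and PSMG3 for the core and PSMD5, PSMD9 and PSMD10 for the base. Their median furthest position, 1082 nt, was below that of the structural subunits, 1286 nt, and their median number of sites was 3.5 against 8. The activators PSME1 and PSME4, in neither group, lay in the range of the chaperones at 32.4% and 32.8%. The chaperone median lay near that of all transcripts, 22.6%, and of those reaching at most 2000 nt, 25.7%. POMP, an assembly chaperone, ADRM1, a ubiquitin receptor of the base, and SEM1, a lid subunit, lie outside the symbol rule and were not included. This division was examined after the values were seen and carries no test.

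Within the core, the alpha ring mRNAs PSMA1 to PSMA7 held 4 to 8 PAR-CLIP sites and the beta ring mRNAs PSMB1 to PSMB7 held 2 to 8. PSMB4 held 2 sites that covered 99.4% of its 905 nt, the wider running from nt 293 to 905 at a score of 10.43. PSMB3, a beta ring subunit, held 2 sites that covered 91% of 743 nt, the wider from nt 54 to 640 at 10.27. PSMA2 held 4 sites and 94.7% cover. PSMB1, PSMA6 and PSMA7 held 6, 5 and 7 sites, with cover of 88.2%, 81.9% and 70.5%.

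PSMB2, a beta ring subunit, held 8 sites over 2612 nt with 36.8% cover, the lowest in the core, and PSMA4 held 8 over 1046 nt with 59.1%. PSMA1, PSMB6 and PSMB7, the latter pair with proteolytic activity, held 7 each, with cover of 55.4%, 67.9% and 67.7%. The core mRNAs not named here with values, PSMA3, PSMA5 and PSMB5, held 4 or 5 sites each with cover of 68.7% to 77%.

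Regulatory mRNAs were longer in span and held more sites, with medians of 1517 nt and 8 sites against 936 nt and 5.5 sites in the core. Per 1000 nt of span the medians were 5.23 sites for regulatory and 5.24 for core members, and 2.92 for all transcripts. Across the 43 members the number of sites rose with the furthest position (Spearman's rho 0.778, a description in which both quantities come from the same sites of 1 library). PSMD1, the other large scaffold of the base, held 19 sites over 3238 nt, with 75% cover and a highest score of 8.79 between nt 1710 and 1955. PSMD2 held 14 over 3018 nt with 83.4% cover. PSMD11, a lid scaffold, held 15 over 3506 nt with 54.3% cover.

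Among the 6 ATPases of the base, cover lay between 66% and 85.2%. PSMC3 held the most sites, 12, and PSMC2 had the highest cover, with 7 sites. The PAR-CLIP scores of PSMC2 had the widest range of any member, with the highest 55 times the lowest on the linear scale. PSMC1, PSMC4, PSMC5 and PSMC6 held 8 or 9 sites each. The 8 lid subunits were lower, at 40.1% to 65.6%. PSMD13 led their sites per 1000 nt at 6.96, with 12 sites, and PSMD6 held the fewest, 5, with 51.8% cover. PSMD3 held 9 sites, and PSMD7, PSMD8, PSMD12 and PSMD14 between 7 and 11. PSMD4, the ubiquitin receptor of the base, held 8 sites. PSMC3IP, the recombination factor, held 1 site of 33 nt, and PSMD10, the chaperone also known as gankyrin, held 3 with 16.1% cover, while the chaperones PSMD5 and PSMD9 held 6 and 5.

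**Figure D4:**
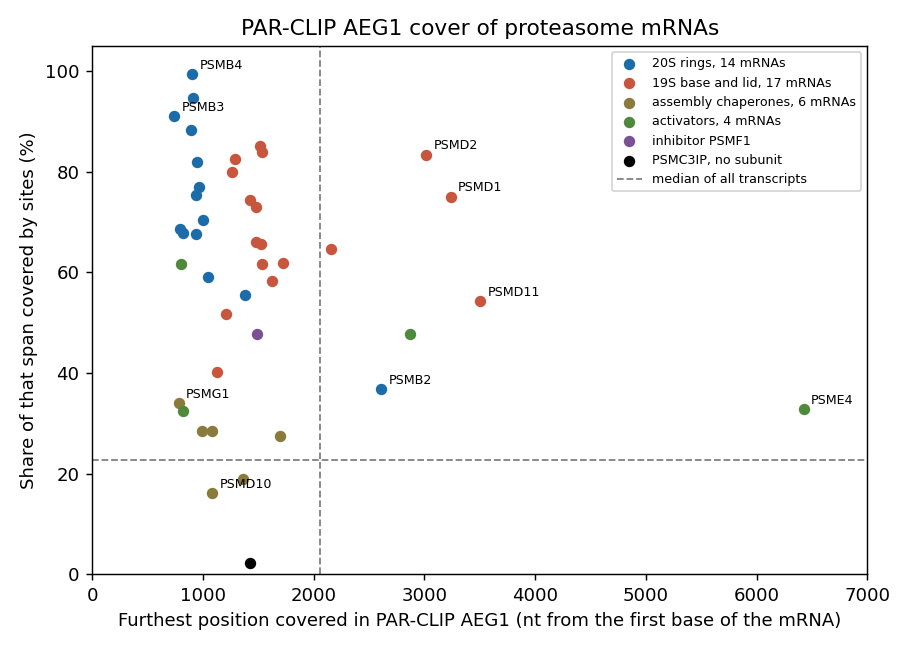
Share of the PAR-CLIP AEG1 span covered by sites (percent) against the furthest covered position (nt from the first base), 1 point for each of 43 mRNAs, coloured by role, with dashed lines at the medians of all 8009 transcripts. The ring, base and lid subunits lie at 36.8% or above, and the 6 assembly chaperones at 34.0% or below.

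The activators differed among themselves. PSME4, or PA200, a very large single-chain activator of the nucleus, held 26 PAR-CLIP sites over 6424 nt, the most of any member, with 32.8% cover. PSME3, the nuclear PA28 gamma, held 16 over 2871 nt with 47.7% cover. PSME1 and PSME2, which form the cytosolic PA28 ring together, held 4 and 6 sites over spans of 821 and 805 nt, with cover of 32.4% and 61.6%. PSMF1, an inhibitor of the core particle in vitro, held 7 sites with 47.7% cover. PSMG1, PSMG2 and PSMG3 held 3, 3 and 4 sites, with cover of 34%, 28.5% and 18.9%. Of these 8 mRNAs, PSME2 had a HITS-CLIP site and the others had none. Several members, such as PSMC1, PSMA6 and PSME2, have pseudogene copies, and how the authors placed reads shared with such copies is not stated in the labels, so values of these mRNAs are uncertain.

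Other genes of the pathway, from a list that the symbol rule does not use, had HITS-CLIP AEG1 sites in both replicates on 4 of 28 (14.3%, against 16.1% of all genes) and PAR-CLIP sites on 26 of 28 (92.9%, against 97.6%). PAAF1 and DDI1, counted among the 28, had no row in any list, whereas the shares of all genes count only listed genes. All 26 listed pathway genes had a PAR-CLIP site. NFE2L1, the transcription factor that drives proteasome genes and is made as an ER membrane protein, held 5 and 4 HITS-CLIP sites and 28 PAR-CLIP sites, more HITS-CLIP sites than any proteasome subunit. UBA1, the main ubiquitin-activating enzyme, held 1 and 1 HITS-CLIP sites. VCP, the ATPase that extracts proteins from the ER membrane, held 1 and 3, but also 1 in each HITS-CLIP control. RPS27A, a fusion of ubiquitin and a ribosomal protein, held 2 and 1, and 1 in the PAR-CLIP control, and is uncertain because other genes encode the same ubiquitin sequence. ADRM1, a ubiquitin receptor of the base outside the rule, held 7 PAR-CLIP sites and no HITS-CLIP site. SEM1, a small lid subunit, held 1 HITS-CLIP site in replicate 1, and POMP, the chaperone of beta ring assembly, held 1 in replicate 2.

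Beside another cytosolic complex and a complex of the ER membrane, the proteasome had the lowest share in both HITS-CLIP replicates. The chaperonin that folds actin and tubulin had a site in both on 2 of 8 subunit mRNAs (25%, exact interval 3.19 to 65.1) and in PAR-CLIP on 8 of 8. The oligosaccharyltransferase, which attaches sugars to proteins entering the ER, had a site in both on 8 of 12 (66.7%, exact interval 34.9 to 90.1) and in PAR-CLIP on 11 of 12. TUSC3, counted among the 12, had no row in any list, whereas proteasome members are counted only where listed. All 11 listed subunit mRNAs had a PAR-CLIP site. The interval for proteasome members, 0.555 to 15.5%, overlaps that of the chaperonin and not that of the oligosaccharyltransferase, and genes are not independent replicates. Both compared complexes were also chosen with earlier results of these data known, so this contrast is a description and no test. The median difference of highest scores, HITS-CLIP minus PAR-CLIP, was -4.29 over 5 chaperonin mRNAs and -2.11 over 9 oligosaccharyltransferase mRNAs, beside -4.33 over 9 proteasome mRNAs.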

How the data were processed

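Sites on RefSeq mRNAs were analysed in 6 libraries. The submitters' processing notes name Bowtie. No label or header states its reference, the site caller or a threshold. The score deposited by the authors was read as log2 from its values, and its normalization is unknown. Positions, also deposited by the authors, are printed 1-based. Of 8204 transcripts, 8146 matched a RefSeq table (GRCh38.p14) by accession, 30 by symbol and 20 by synonym. The 11 blank lines were skipped.

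A gene was called where a library listed at least 1 site. Libraries were compared by a two-sided exact permutation test, and shares carry exact Clopper-Pearson 95% intervals for counting error only. Functions were tested on simulated lists. Members and lists were chosen with earlier results of these data known. All members are counted, and those with HITS-CLIP sites, the core and regulatory members with most and fewest PAR-CLIP sites, and all PSME, PSMF and PSMG genes are named. Alternatives covered short sites, scores, sites per gene, overlap, span and replicates. Python 3.11.15, numpy 2.4.6 and scipy 1.17.1 were used. Some genes of the pathway list are not reported here. Site sequences and coding boundaries were not analysed here.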

Additional observations from a re-analysis of the deposited data

How the results depend on the processing

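Of 56 alternatives, 35 were counted as keeping their result, though not always its size, and 21 as moving a count, share or median. A moved value did not always lose its direction. The share of all members in both HITS-CLIP AEG1 replicates stayed below that of all genes at every setting, as did the median score difference. The core share did cross that of all genes, at 40% against 27.3% in either replicate and 33.3% against 20.8% without replicate 1. The members with a site, 6 above the controls on average, became 1 with sites above the median score and 4 without sites of 25 nt or less, and member sites, at 6.5, became 1 and 4.5, with an exact permutation p of 0.333 in each. The count of 2 members in both HITS-CLIP AEG1 replicates fell to 0 without sites of 25 nt or less, and likewise when a gene needed 2 sites. The share of all genes also fell, from 16.1% to 13.5% and 8.05%. The member count was 1 above the median score of all sites, 1 among genes with a PAR-CLIP site and 10 in either replicate. These are 2.27%, 2.33% and 22.7% of members, against 9.78%, 15.5% and 27.3% of all genes. With 1 replicate left out it was 5 to 7. Without replicate 2 the shares were 11.4% of members and 22.7% of all genes, and without replicate 1 they were 15.9% and 20.8%. For core members the settings of short sites, 2 sites and median score gave 0, 0 and 1 of 15, then 6 (40%) in either replicate. With 1 replicate left out, 3 to 5 core members (20% to 33.3%) were listed. The shares of all genes at each setting are those just given. For regulatory members, at 0 of 21 in both, there were 3 (14.3%) in either replicate and 1 to 2 (4.76% to 9.52%) with 1 replicate left out, beside the same shares of all genes. The median score difference of -4.33 became -2.17 with median scores, against -0.09 over all transcripts. With each score divided by its site width it became -1.07, against 0.14. Without sites of 25 nt or less, 4 member sites remained in replicate 1 and 5 in replicate 2. Of these, 0% and 0% overlapped the other replicate, against 63.2% and 71.4% of all sites. A PAR-CLIP site was overlapped by 100% of each, against 93.6% and 93.8% of all sites. The mean difference from controls was 6 members with a site in a paired analysis (replicate block, exact sign-flip p = 0.5), as without it. The member count in PAR-CLIP AEG1 stayed within 33 to 43 of 44 where all members were counted. The 33, or 75%, had a site above the median score, as did 73.3% of all genes. At least 2 sites were held by 42 members (95.5%) and by 82.3% of all genes. The site lists carry no read counts, so depth sets an unknown limit on low-scoring sites.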
